A study of Mus musculus with 36 samples.

Results

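The comparison described here set clone 66 against clone 48 at day 0, the state of the brown pre-adipocytes before adipogenic induction. Its members were the 12 libraries whose labels give day 0, 6 of each clone, out of 36 libraries in the series. The cells came from a clonal line of wild-type mouse brown pre-adipocytes in which *Rxra*, the gene of the nuclear receptor RXRα, had been disrupted by Cas9, and clones 48 and 66 are independent *Rxra*-/- clones of that line. Each clone was infected with a hygromycin-selected retrovirus carrying RXRα, either wild-type (*Rxra*WT, labelled WT) or with alanine in place of serine 22 (*Rxra*SA, labelled SA and S22A), so that no library lacked the receptor altogether. Total RNA was sequenced at days 0, 2 and 6 of differentiation. At day 0 there were 3 libraries each of clone 48 *Rxra*WT, clone 48 *Rxra*SA, clone 66 *Rxra*WT and clone 66 *Rxra*SA, all from confluent cultures kept with insulin and T3 and not yet given the induction cocktail. The genotypes were pooled within a clone, with genotype as a covariate.

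All clone 48 libraries were sequenced in library pool 1 and all clone 66 libraries in pool 2, so that clone and pool cannot be told apart in any value below. Each side is also a single clone, and 6 libraries of a clone are not 6 clones. The p-values measure the spread between libraries, and the submitters' design text calls the clones biological and the replicates technical. The paper, in contrast, describes its cell culture experiments as independent replicates. Total counts were 11351078 to 18214314 in clone 48 and 17823204 to 24349263 in clone 66. Replicate 1 of clone 48 *Rxra*SA stood apart, with 4.56% of its counts in 6 structural RNA loci against 0.00577% to 0.282% in the other libraries. Counts without that library are given below where they matter. Libraries of the same clone, replicate number and different genotype deviated together (mean r = 0.482 over 6 pairs, 9762 genes), so a second fit summed the counts of each such pair and compared 3 sums with 3.

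Brown pre-adipocytes are mesenchymal progenitors committed to form thermogenic fat. They carry surface proteins shared by many adipose progenitors, such as the growth factor receptor PDGFRα and SCA-1 (*Ly6a*). Factors such as EBF2 select the brown programme, zinc finger proteins such as ZFP521 oppose it, and BMP and TGF-β ligands with their secreted inhibitors set how readily the cells enter differentiation. *Rxra* encodes RXRα, a receptor with which PPARγ pairs to bind DNA.

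Promoters of 4 genes among those with the largest differences between the clones are shown here, so that the CG content described below can be seen in genes of either direction. They are RefSeq promoters of build GRCm38.p6, running from 250 bases before to 50 bases after a transcription start, with each CG in capitals. *Sema3a* (chr5:13396534-13396833, + strand) and *Pcdh18* (chr3:49757267-49757566, - strand) were near 0 in clone 48, and *Pon3* (chr6:5256184-5256483, - strand) and *Efemp1* (chr11:28852955-28853254, + strand) were low in clone 66.
Sema3a: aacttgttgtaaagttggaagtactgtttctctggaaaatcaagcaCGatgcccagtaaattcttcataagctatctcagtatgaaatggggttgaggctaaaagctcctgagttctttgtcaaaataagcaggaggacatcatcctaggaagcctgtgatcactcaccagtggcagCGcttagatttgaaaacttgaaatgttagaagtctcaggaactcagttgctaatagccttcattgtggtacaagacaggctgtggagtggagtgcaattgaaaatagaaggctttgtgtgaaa
Pcdh18: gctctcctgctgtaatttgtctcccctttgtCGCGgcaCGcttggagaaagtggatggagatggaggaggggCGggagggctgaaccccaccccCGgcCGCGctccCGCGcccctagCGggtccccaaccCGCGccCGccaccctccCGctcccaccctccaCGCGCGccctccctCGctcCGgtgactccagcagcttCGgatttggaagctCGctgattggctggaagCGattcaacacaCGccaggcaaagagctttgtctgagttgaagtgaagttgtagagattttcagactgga
Pon3: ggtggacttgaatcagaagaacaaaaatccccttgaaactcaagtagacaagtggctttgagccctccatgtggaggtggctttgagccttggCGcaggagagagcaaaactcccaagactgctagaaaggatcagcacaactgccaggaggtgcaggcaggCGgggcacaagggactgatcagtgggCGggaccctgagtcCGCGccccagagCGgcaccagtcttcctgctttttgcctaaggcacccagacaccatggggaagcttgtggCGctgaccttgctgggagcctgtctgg
Efemp1: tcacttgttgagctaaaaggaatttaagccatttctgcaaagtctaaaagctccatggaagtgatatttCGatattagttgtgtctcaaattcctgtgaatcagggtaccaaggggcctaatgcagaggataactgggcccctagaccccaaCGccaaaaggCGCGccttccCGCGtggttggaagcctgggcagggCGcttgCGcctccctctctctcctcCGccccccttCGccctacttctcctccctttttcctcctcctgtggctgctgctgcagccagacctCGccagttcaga
These promoters hold 2, 23, 7 and 11 CG dinucleotides, respectively. A promoter was found for 10417 of the 16166 genes tested, with a median of 21 CG. The median was 11 in the 296 promoters of genes at least 2-fold higher in clone 66 and 11 in the 318 promoters of genes at least 2-fold lower. The E-box CAGGTG, searched on both strands, occurred in 16.7% of all tested promoters, 22.6% of those of the higher genes and 20.8% of those of the lower genes. An EBF motif occurred in 1.03%, 1.35% and 0.629%, respectively. These matches describe letters, and binding was not measured.

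Of 16166 genes tested with edgeR's quasi-likelihood test, 3947 differed between the clones at a Benjamini-Hochberg adjusted p under 0.05, which is 24.4% of the genes tested. Of these, 2163 genes (13.4%) were higher and 1784 (11%) lower in clone 66. A change of at least 2-fold was called for 1012 genes (6.26%), 540 of them higher (3.34%) and 472 lower (2.92%). At least 16-fold, 62 genes were higher and 31 lower. In 2327 genes (14.4%) the 6 libraries of one clone all lay above the 6 of the other (clone 66 above in 7.66%, below in 6.74% of tested genes), and 796 of the 1012 genes were among them. With the paired libraries summed, 1800 genes were called, and 881 of the 1012 genes kept an adjusted p under 0.05. Of the 16166 genes, 938 were called higher and 806 lower in that fit. Counts of gene lists are to be read beside these numbers, and beside 13.4% and 11% in the main fit. Without replicate 1 of clone 48 *Rxra*SA the number called was 3521. In *Rxra*WT libraries alone, 3 against 3, it was 1346, and in *Rxra*SA libraries alone 1004. The median log2 fold change of all tested genes was 0.027 and the median standard error 0.159.

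**Figure D1:**
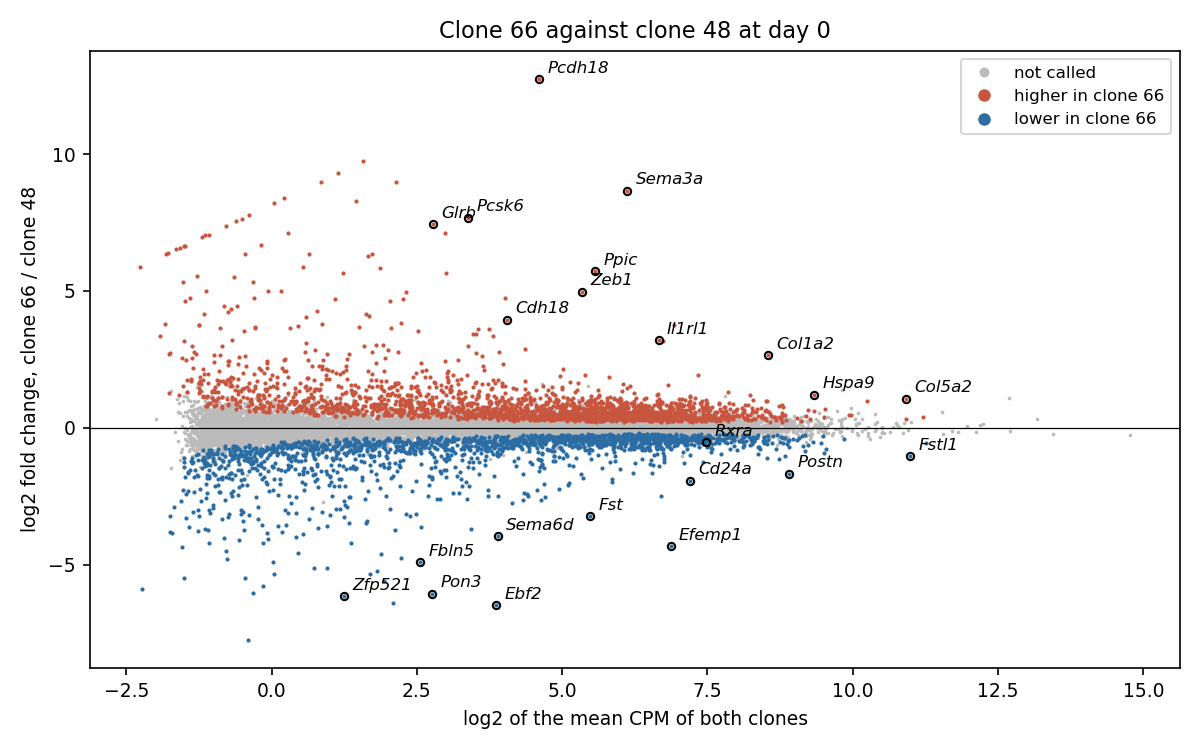
Each point is a tested gene, with the log2 of its mean TMM-scaled CPM (counts scaled to the library size) over the clones on the horizontal axis and the log2 fold change of clone 66 over clone 48 at day 0 on the vertical axis, coloured where the adjusted p was under 0.05. Called genes lie on both sides of 0, and *Sema3a* and *Efemp1* combine a high level with a large difference; the height of genes without counts in one clone, such as *Pcdh18*, depends on the fit's prior count and is no estimate of size.

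Separate libraries of a clone lay far closer together than libraries of different clones. The distance between libraries, computed from the 500 genes that differed most in a pair (root mean square of log2 CPM differences), was 2.93 ± 0.123 (SD, 36 pairs) between clones and 1.67 ± 0.248 (SD, 12 pairs) between libraries of the same clone and genotype. The lowest of the 36 distances between clones was 2.72, and the highest within a clone and genotype was 2.06. No dependence of the clone difference on the genotype was detected, by a test that found few genes at any level. In the interaction of clone and genotype, 0 of 16166 genes passed in edgeR's test (262 had an unadjusted p under 0.05, and the smallest adjusted p was 0.946), and 0 passed in DESeq2 (184 unadjusted). The 262 genes are 1.62% of those tested, less than a threshold of 0.05 gives by chance. The test was thus conservative, and its 0 calls do not show that the clone difference was equal in both genotypes.

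*Rxra* reads come from the retroviral and any remaining endogenous transcript, which the counts do not separate. *Rxra* (ENSMUSG00000015846.14, chromosome 2 of GRCm38, 27676440 to 27762957) ranged from 190 to 259 CPM in clone 48 with a median of 207, and from 102 to 193 CPM in clone 66 with a median of 148. The ranges overlapped narrowly. The log2 fold change was -0.53 (standard error 0.148, adjusted p = 0.0194), and with paired libraries summed the adjusted p was 0.0764. The other RXR gene tested, *Rxrb*, had means of 52.9 and 56.1 CPM and was not called, and *Rxrg* had 0 counts in every library.

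EBF2 helps to commit precursors to the brown lineage, and its transcript was almost confined to clone 48 at day 0. *Ebf2* (ENSMUSG00000022053.13, chromosome 14, 67233292 to 67430918) ranged from 18.6 to 35.7 CPM in clone 48, with a median of 31.4, and from 0.159 to 0.479 CPM in clone 66, with a median of 0.277. Its log2 fold change was -6.48 (standard error 0.231, adjusted p = 6.99e-10). Its exons overlap another annotated gene, and reads were counted without strand. *Zfp521*, a zinc finger gene known to act against EBF factors and adipogenesis, went the same way. *Zfp521* (chromosome 18) had 446 counts over the 6 clone 48 libraries and 7 over those of clone 66, a ratio of 78.3 after scaling (95% interval 37.7 to 196, counting error only).

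The other genes with the largest decreases encode matrix, receptor and enzyme proteins. *Efemp1*, which encodes a fibulin of the extracellular matrix, had a median of 231 CPM in clone 48 (183 to 239) and 11 CPM in clone 66 (7.37 to 14.8), a log2 fold change of -4.34 (adjusted p = 4.91e-10). *Fbln5*, another fibulin, fell by 4.91 on the log2 scale, and *Pon3*, a paraoxonase, by 6.06. The receptor gene *Fgfr2* (-3.70), the ephrin receptor gene *Ephb2* (-3.62), the semaphorin gene *Sema6d* (-3.97), the activin inhibitor *Fst* (-3.23), the ubiquitin ligase gene *Rnf130* (-3.16) and the pyruvate dehydrogenase kinase gene *Pdk1* (-2.75) completed the 10 largest decreases among genes with at least 10 CPM in the higher clone. The rule took only genes whose clones did not overlap. Exons of *Ebf2*, *Fgfr2* and *Fst* overlap those of another gene.

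In the opposite direction, *Sema3a*, the gene of a secreted axon guidance protein, was near 0 in clone 48. *Sema3a* (chromosome 5, 13125414 to 13602565) ranged from 0.169 to 0.56 CPM in clone 48 and from 105 to 172 CPM in clone 66, with medians of 0.307 and 144 CPM. Its log2 fold change was 8.66 (standard error 0.232, adjusted p = 1.09e-10). *Pcdh18*, a protocadherin gene, had 0 counts in all 6 libraries of clone 48 and 33.5 to 64.9 CPM in clone 66, at least 251-fold higher against a floor of 3 counts per library. *Pcsk6*, which encodes a proprotein convertase, had 9 counts over clone 48 and 2489 over clone 66, a ratio of 225 (95% interval 118 to 493).

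The 10 largest increases followed the rule used for the decreases, at least 10 CPM in the higher clone and no overlap between clones. Genes at lower levels were left out by it. Among the 10 were also *Glrb*, a glycine receptor subunit gene (log2 fold change 7.44), and *Itgbl1* (7.13). *Ppic*, a cyclophilin gene (5.71), *Pappa2*, a protease gene of the IGF system (5.64), and *Zeb1*, a repressor known from epithelial-mesenchymal transition (4.97), were others. *Flrt2* (4.75) and the cadherin gene *Cdh18* (3.95) completed them. *Zeb1* rose from a median of 2.44 CPM (1.81 to 3.48) to 76.1 CPM (68.7 to 89.7). *Ppic* and *Zeb1* lie on chromosome 18, which is described below. Reads of *Pappa2*, *Zeb1* and *Pcsk6* are uncertain through overlapping exons.

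**Figure D2:**
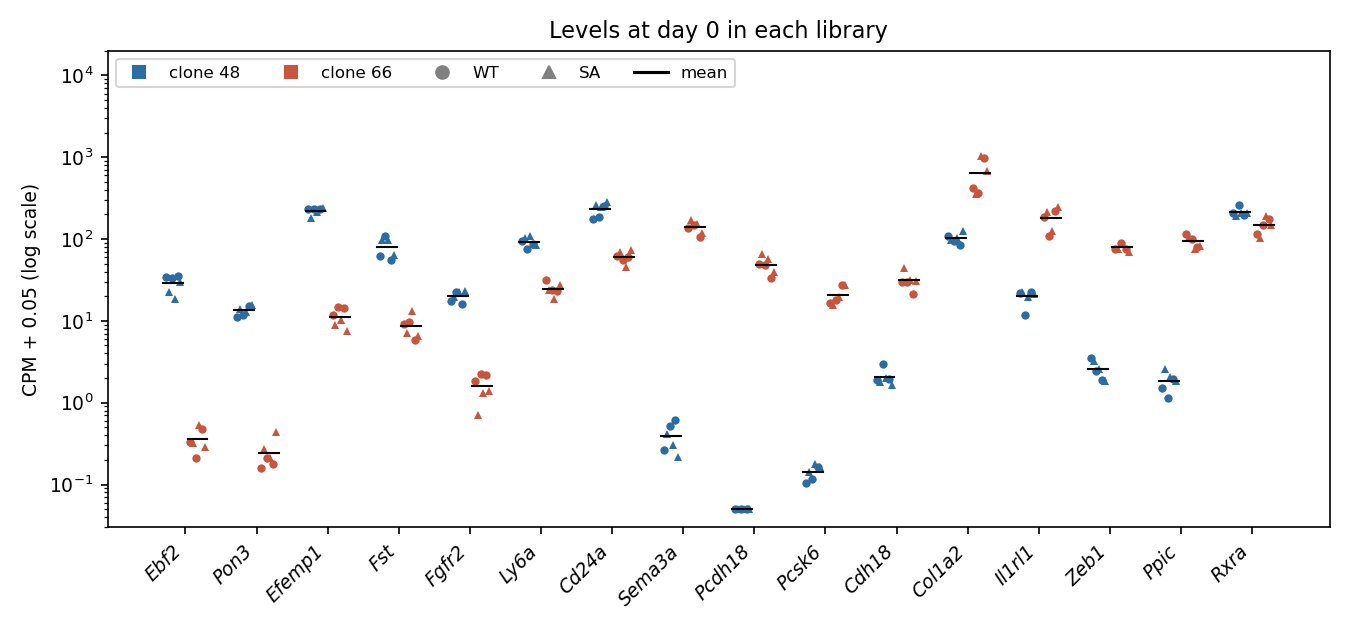
Points give the CPM plus 0.05 of each day 0 library on a log axis for 16 genes, circles for *Rxra*WT and triangles for *Rxra*SA, and bars give the mean of 6 libraries of a clone. The clones do not overlap except for *Rxra*, and circles and triangles of a clone lie together.

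Of the 3947 genes called among 16166 tested, 59 had at most 3 counts in every clone 48 library and 29 in every clone 66 library. That clone is named silent here. The limit of 3 counts was 0.163 to 0.272 CPM in clone 48 and 0.13 to 0.167 CPM in clone 66. It was thus easier to meet in clone 48, and the numbers 59 and 29 are not comparable. Besides *Pcdh18* and *Pcsk6*, abundant genes silent in clone 48 were *Ano3*, of the anoctamin family (7 counts against 760), and *Ighm*, which encodes an immunoglobulin heavy chain (7 against 706). Besides *Zfp521*, those silent in clone 66 were *D330045A20Rik* (185 counts in clone 48 against 5), the plasma protein gene *Itih4* (185 against 7), the basement membrane gene *Tinag* (166 against 3) and the flavin monooxygenase gene *Fmo4* (149 against 2). The silent clone's counts were too few for more than a wide ratio, 91.5 (95% interval 24.9 to 763) for *Fmo4*.

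Abundant genes, here those with the highest CPM, included several of the matrix. *Col5a2* ranged from 955 to 1700 CPM in clone 48 and from 1950 to 3400 CPM in clone 66 (log2 fold change 1.06, adjusted p = 0.000462). *Col1a2* rose from a median of 101 to 556 CPM (2.64), *Col1a1* from a mean of 67.3 to 256 CPM (1.91) and *Fn1*, fibronectin, from a median of 177 to 328 CPM (1.19). In contrast, *Fstl1*, a secreted follistatin-like protein gene, fell from a median of 2640 CPM (2420 to 3140) to 1300 CPM (1160 to 1520), and the matrix protein gene *Postn* from 684 to 235 CPM. The chemokine gene *Cxcl12* (-1.13), the semaphorin gene *Sema3c* (-1.02) and *Arhgap5* (-1.09) were the other abundant genes with a decrease of at least 2-fold. The mitochondrial chaperone gene *Hspa9* (1.21) and the leucyl-tRNA synthetase gene *Lars* (1.02), both of chromosome 18, were the other abundant genes with an increase.

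The cells of both clones carried most adipose progenitor markers, and 7 of the 14 tested were lower in clone 66.
Of 19 markers 14 were tested, 1 was higher and 7 were lower in clone 66 (7.14% and 50%, beside 13.4% and 11% of all genes), with a median log2 fold change of -0.36 beside 0.027 for all genes. The summed pairs gave 1 and 7 as well. *Pdgfra* ranged from 116 to 196 CPM in clone 48 and from 37.7 to 78.8 CPM in clone 66 (-1.40, adjusted p = 0.000126), while the related receptor gene *Pdgfrb* (chromosome 18) rose (0.92). *Ly6a* fell from a median of 89.7 CPM (75.5 to 108) to 23.9 CPM (18.4 to 31.6) and *Cd24a* from 249 CPM (176 to 286) to 61.3 CPM (45.4 to 73.0). *Fmo2* had a larger fall (-5.36), and *Col15a1* (-2.13) was at 2.5 to 6.67 CPM in clone 48 and 0.276 to 1.6 CPM in clone 66. *Cd34* and *F3* were also lower. *Itgb1*, *Cd44*, *Anxa3*, *Eng*, *Pi16* and *Clec11a* were not called. *Thy1*, *Dpp4*, *Cd55*, *Icam1* and *Mfap5* had at most 6 counts in any library.

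In bulk RNA fewer cells of a type and less RNA per cell cannot be told apart. Markers of other cell types were checked next. Of 8 epithelial markers 0 were tested, with summed levels of 0.335 to 1.09 CPM in clone 48 and 0.264 to 0.481 CPM in clone 66, and *Epcam* had 0 counts. Of 9 endothelial markers only *Vwf* was tested, and it was not called. Of 10 macrophage markers 4 were tested, with summed levels of 15.2 to 21.1 and 18.3 to 24.3 CPM. *Cd68* fell by 0.68 and *Cd14* rose by 0.68 on the log2 scale. *Cd14* lies on chromosome 18, whose tested genes had a median of 0.78. *Adgre1* had 0 counts and *Ptprc* at most 1. With the pairs summed 2 of the 4 tested macrophage markers were higher and 0 lower. Of 14 skeletal muscle markers 2 were tested and 0 called, and *Myod1* and *Myog* had 0 counts, although *Pax3* was expressed at means of 92.3 and 78.2 CPM. Of 8 Schwann cell markers 3 were tested, and 2 were lower in clone 66, *S100b* (-0.92) among them, and 0 with the pairs summed. *Sox10* had 1 to 7 counts. The summed level of the list was 16.5 to 25.5 CPM in clone 48 and 8.08 to 18.9 CPM in clone 66, and its part in other results was not tested. Of 15 cartilage and bone markers 9 were tested, 4 were higher and 3 lower, and 2 and 3 with the pairs summed. Their summed level was 204 to 367 CPM in clone 48 and 408 to 640 CPM in clone 66, which did not overlap, and its part in other results was not tested. Most of that summed level came from 1 gene, *Spp1*, which encodes osteopontin. *Spp1* was at 149 to 317 CPM in clone 48 and 354 to 600 CPM in clone 66 (0.98). *Alpl* (1.52) was higher as well and *Phex* (-1.47), *Comp* (-1.49) and *Matn3* (-1.46) were lower, while *Acan* and *Ibsp* had at most 1 count in a library.

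Genes that drive or mark fat cell formation were called in both directions, and most of the brown lineage list was not measurable before induction. Of 20 brown lineage genes 6 were tested. *Ebf2*, *Kcnk3* (-0.91) and *Cox7a1* (-1.25) were lower and *Ppargc1b* (1.27, chromosome 18) was higher, and *Tbx15* and *Ppargc1a* were not called. *Ucp1*, *Cidea* and *Dio2* had at most 1 count in a library and *Prdm16* at most 3, while *Zic1* and *Lhx8*, markers of classical brown precursors, had 0. Of 22 adipogenic transcription factors 19 were tested, 2 were higher and 5 lower (10.5% and 26.3%, beside 13.4% and 11% of all genes). *Cebpa* fell from a median of 35.2 CPM (22.7 to 45.5) to 14.8 CPM (8.44 to 17.6), and *Zfp423*, which marks committed pre-adipocytes, from 3.57 to 1.47 CPM. *Pparg* (-0.29) and *Ebf1* (-0.42) were lower by less, and the glucocorticoid receptor gene *Nr3c1* (0.71, chromosome 18) and *Srebf1* (0.46) were higher. With the pairs summed 1 was higher and 2 were lower. Of 14 mature adipocyte genes tested 3 were higher and 4 lower (21.4% and 28.6%). *Adipoq*, adiponectin, was at 1.74 to 6 CPM in clone 48 and 0.0482 to 0.780 CPM in clone 66 (-3.18), *Cidec*, a lipid droplet protein gene, fell by 2.98 and *Lpl*, lipoprotein lipase, by 0.92 on the log2 scale, whereas *Fasn*, the fatty acid synthase, rose (0.87). With the pairs summed 1 was higher and 4 were lower. Of 24 anti-adipogenic regulators tested 4 were higher (16.7%), *Wnt10b* (1.32) among them, and 5 lower (20.8%), *Zfp521* and *Trib2* (-1.24) among them. With the pairs summed these numbers were 1 and 3. Of 7 white and beige lineage genes tested, *Shox2* (1.00) and *Tnfrsf9* (0.89) were higher and 0 lower, and 1 was higher with the pairs summed.

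Genes of the BMP, TGF-β and activin system were more often lower than higher in clone 66. Of 32 tested, 2 were higher and 14 lower in clone 66 (6.25% and 43.8%), with a median log2 fold change of -0.37, and 10 were lower and 0 higher with the pairs summed. Their summed level was 5190 to 6110 CPM in clone 48 and 3530 to 3890 CPM in clone 66. Much of that sum came from 2 genes, *Fstl1*, whose levels are given above, and *Grem1*. Among ligands *Bmp4* (-1.22), *Bmp1*, a protease despite its name (-0.58), and *Inhbb* (-1.67) were lower. Receptor genes lower in clone 66 were *Tgfbr1* (-0.63), *Tgfbr2* (-0.41) and *Acvr2a* (-0.46). Among the secreted inhibitors and related proteins, *Fst* fell from a median of 80 CPM (55.2 to 108) to 8.10 CPM (5.79 to 13.1), and *Chrd* (-2.55), *Chrdl1* (-1.09), *Fstl1* (-1.05) and *Fstl3* (-0.58) fell too, whereas *Grem1* had means of 1350 and 1100 CPM and was not called. Of the target genes and intracellular inhibitors, *Id4* (-1.86), *Id3* (-0.42) and *Smad6* (-0.63) were lower and *Smad7* (0.95, chromosome 18) higher. *Ltbp2* (0.67), by name a latent TGF-β binding protein gene, was the other gene that rose.

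Guidance and Wnt genes differed in both directions. Of 45 tested axon guidance genes 13 were higher and 11 lower (28.9% and 24.4%), and 8 and 9 with the pairs summed. Ligand genes on in clone 66 and near 0 in clone 48 were *Sema3a*, *Sema3d* (1 count against 209, a ratio of 170, 95% interval 30.2 to 6750) and *Slit2* (0 counts, at least 12-fold higher). *Efna5* (1.67), *Epha7* (3.52) and *Ntng1* (3.69) were also higher, and *Ntn4* (-2.43), *Sema6d*, *Sema3c* and *Ephb2* lower. Of the semaphorin co-receptors, *Nrp1* was lower (-0.61) and *Nrp2* higher (0.62). Of 23 tested Wnt genes 6 were higher and 6 lower (26.1% each, beside 13.4% and 11% of all genes). With the pairs summed these numbers were 2 and 5. The receptor gene *Fzd1* fell from a median of 178 CPM (128 to 229) to 30.0 CPM (26.8 to 42.1), and *Fzd8* (chromosome 18) rose from 4.03 CPM (2.88 to 4.58) to 24.4 CPM (20.9 to 34.8). The secreted antagonist gene *Dkk2* fell by 5.14 on the log2 scale.

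Several targets of p53 and inhibitors of cyclin-dependent kinases were higher in clone 66. Of 23 tested, 11 were higher (47.8%) and 2 lower (8.70%), with a median log2 fold change of 0.41, and 6 were higher and 1 lower with the pairs summed. *Cdkn1a*, the p21 gene, ranged from 3.53 to 11.5 CPM in clone 48 and from 8.80 to 38.2 CPM in clone 66, medians 9.14 and 25.8 CPM (1.53, adjusted p = 0.00992), and the ranges overlapped. *Zmat3* (1.06), *Plk2* (0.83), *Aen* (0.82), *Phlda3* (0.77), *Eda2r* (0.66), *Btg2* (0.64), *Ccng1* (0.47) and *Mdm2* (0.24) rose as well. *Trp53* itself had means of 28.1 and 47.8 CPM and was not called (adjusted p = 0.222). The INK4 genes *Cdkn2b* (-0.39) and *Cdkn2d* (-0.40) were lower. Cell cycle genes were called in both directions. Of 20 DNA replication genes 1 was higher and 2 lower (5% and 10%), beside 13.4% and 11% of all genes. Of 20 mitosis genes 1 was higher and 4 lower (5% and 20%), and 1 called mitosis gene lies on chromosome 18. The pairs summed gave 0 and 0 for replication and 1 and 1 for mitosis. The summed level of the mitosis list was 5160 to 6800 CPM in clone 48 and 5030 to 5970 CPM in clone 66.

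Genes of antigen presentation were called in 1 direction only. Of 14 tested MHC class I and antigen processing genes 0 were higher and 7 lower (50%), and 3 were lower with the pairs summed. *H2-D1* had means of 117 and 65.8 CPM (-0.81), *H2-T23* fell by 1.24 on the log2 scale, and the immunoproteasome genes *Psmb8* (-1.51) and *Psmb9* (-0.99), the transporter genes *Tap1* and *Tap2* and the regulator gene *Nlrc5* (-0.95) were lower, while *B2m* and *H2-K1* were not called. Reads of class I genes can be shared between near-identical copies. Of 38 interferon-stimulated genes tested 6 were higher (15.8%), *Rsad2* (4 counts against 99) and *Ifih1* (1.24) among them, and 3 lower (7.89%), near the shares of all genes (13.4% and 11%), and 2 were higher and 1 lower with the pairs summed. Of 16 chemokine and mediator genes 5 were higher and 4 lower (31.2% and 25%), and 3 and 4 with the pairs summed. The IL-33 receptor gene *Il1rl1* rose from a median of 21.6 CPM (11.7 to 22.7) to 199 CPM (108 to 244), and *Ccl9* fell from 98.9 CPM (47.5 to 122) to 34.9 CPM (17.9 to 50.2).

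The remaining lists held changes in both directions or few changes. Of all tested genes 13.4% were higher and 11% lower, and with the pairs summed 938 and 806 of 16166. Of 37 collagen and fibrillar matrix genes 9 were higher and 6 lower (6 and 6 with the pairs summed), and *Col5a3* (-2.52) and *Col11a2* (-1.41) were among the lower ones. Of 23 matrix proteases and inhibitors 7 were higher and 3 lower (6 and 1 with the pairs summed), led by *Mmp13* (6 counts against 255) and *Mmp3* (0 against 67, at least 3.00-fold higher), with *Adamts9* (1.88) and *Adamts12* (1.68). Of 9 small leucine-rich proteoglycans 3 were higher, *Lum* (0 counts against 76) and *Dcn* (3 against 177) among them, and *Omd* was lower (-0.93), and 1 was higher and 0 lower with the pairs summed. Of 16 integrin genes 2 were higher and 2 lower (12.5% each), near the shares of all genes, and 1 and 2 with the pairs summed. The integrin gene *Itga6* was at 5.16 to 13.6 CPM in clone 48 and 0.0533 to 0.482 CPM in clone 66. Of 7 cadherin genes 4 were higher (57.1%) and 0 lower, and 3 and 0 with the pairs summed. *Cdh2* (0.69), 1 of the 4, lies on chromosome 18. Of 12 FGF genes 4 were higher (33.3%), *Fgf10* (1.36) and *Fgf1* (2.25, chromosome 18) among them, and *Fgfr2* was lower (8.33%). Chromosome 18 holds 2 of the called FGF genes. With the pairs summed 3 were higher and 1 lower. Of 11 retinoid genes 2 were higher (18.2%), *Crabp2* (2.50) and *Rarg* (0.63), and 5 lower (45.5%), led by *Aldh1a1* (-1.96). With the pairs summed these numbers were 2 and 2. Of 24 Hox genes tested 3 were higher and 0 lower, and 0 of either kind with the pairs summed. Of 16 imprinted genes tested 3 were higher and 0 lower, and again 0 with the pairs summed.

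**Figure D3:**
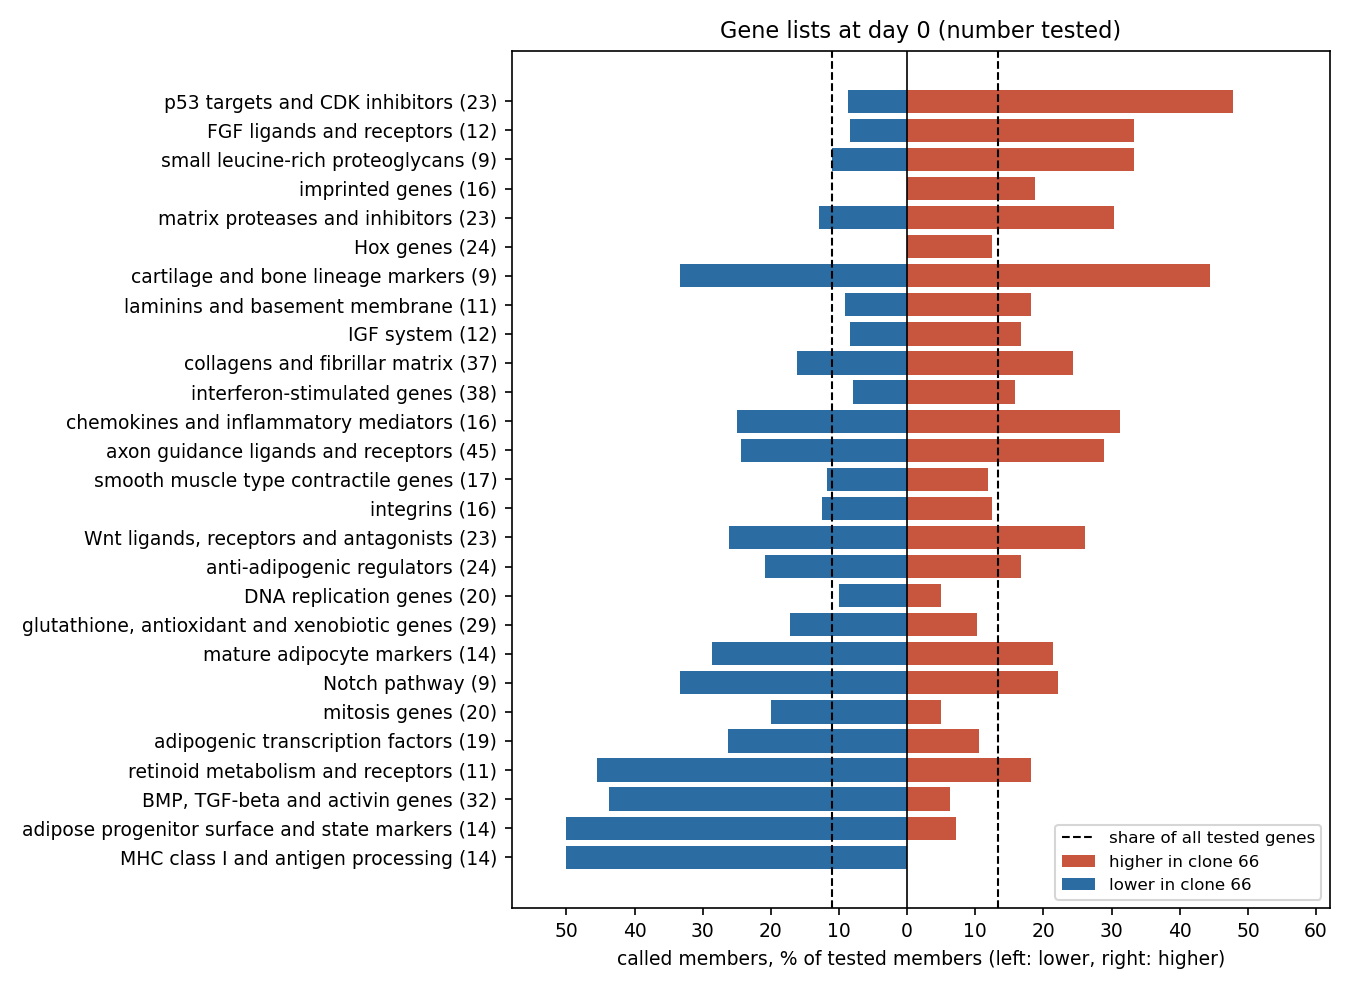
Bars give, for each list with at least 9 tested genes, the percentage of its tested members called higher (right) or lower (left) in clone 66, with the number tested in brackets and dashed lines at 13.4% and 11%, the shares of all tested genes. The p53 list extends farthest to the right (47.8%), and the MHC class I and progenitor lists farthest to the left (50% each).

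Counts of the other lists were small.
Of 11 laminin and basement membrane genes 2 were higher and 1 lower, with *Lama3* (chromosome 18) at 2 counts against 146. Of 17 contractile genes 2 were higher and 2 lower (*Tagln* -1.86, *Mylk* -1.14), 11.8% each and near the shares of all genes (13.4% and 11%). Of 9 Notch genes 2 were higher (22.2%), *Jag1* (2.00) and *Notch2* (0.74), and 3 lower (33.3%). Of 12 IGF genes 2 were higher, *Igf1* (2.73) most of all, and *Igfbp4* was lower (-0.96), 16.7% and 8.33% and also near those shares. Of 29 glutathione and xenobiotic genes 3 were higher and 5 lower, led by *Gstt3* (-2.50) and *Gstt1* (-2.08). With the pairs summed the counts were 1 and 0 for the laminin list, 1 and 2 for contractile genes, 2 and 2 for Notch, 1 and 1 for IGF and 1 and 4 for glutathione genes. Of 7 mitochondrially encoded mRNAs only *mt-Nd5* was called (0.40, adjusted p = 0.138 with pairs summed), and of the 6 structural RNA loci 0 were called.

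The clone difference was not spread evenly over the genome. Chromosome 18 carried the largest shift. Of its 450 tested genes 318 were called higher and 7 lower in clone 66 (70.7% and 1.56%), and 91.3% had a positive log2 fold change. The median was 0.78, a ratio of 1.72. In single libraries, the median deviation of chromosome 18 genes from their mean over the 12 libraries was -0.43 to -0.34 in clone 48 and 0.38 to 0.42 in clone 66, so that the clones stood well apart. For *Rxra*WT libraries the median was 0.80, and for *Rxra*SA libraries 0.78. Of the 1012 genes with a 2-fold call 118 were on chromosome 18. Without that chromosome 894 remained, of which 47.7% were higher in clone 66, and with each chromosome's median subtracted 889 genes passed, 432 higher and 457 lower.

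Smaller shifts covered other whole chromosomes. Chromosome 12 had a median log2 fold change of -0.37 (242 of 573 genes called lower, 26 higher), chromosome X of -0.34 (182 of 441 lower, 30 higher) and chromosome 3 of 0.30 (282 of 869 higher, 25 lower). In all of them the 6 libraries of one clone lay apart from the 6 of the other. Chromosome 9 (-0.20), 11 (0.22), 15 (0.19) and 1 (0.17) were displaced less, and 2, 4, 6, 8, 16 and 17 had medians within 0.04 of 0. On chromosome X, *Xist*, the RNA that silences an X chromosome in female cells, ranged from 361 to 614 CPM in clone 48 and from 150 to 278 CPM in clone 66 (-0.95, adjusted p = 0.00183). Its exons overlap another annotated gene, and the antisense gene *Tsix* had at most 2 counts. The Y-linked genes *Ddx3y*, *Eif2s3y*, *Kdm5d* and *Uty* had at most 1 count in any library.

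**Figure D4:**
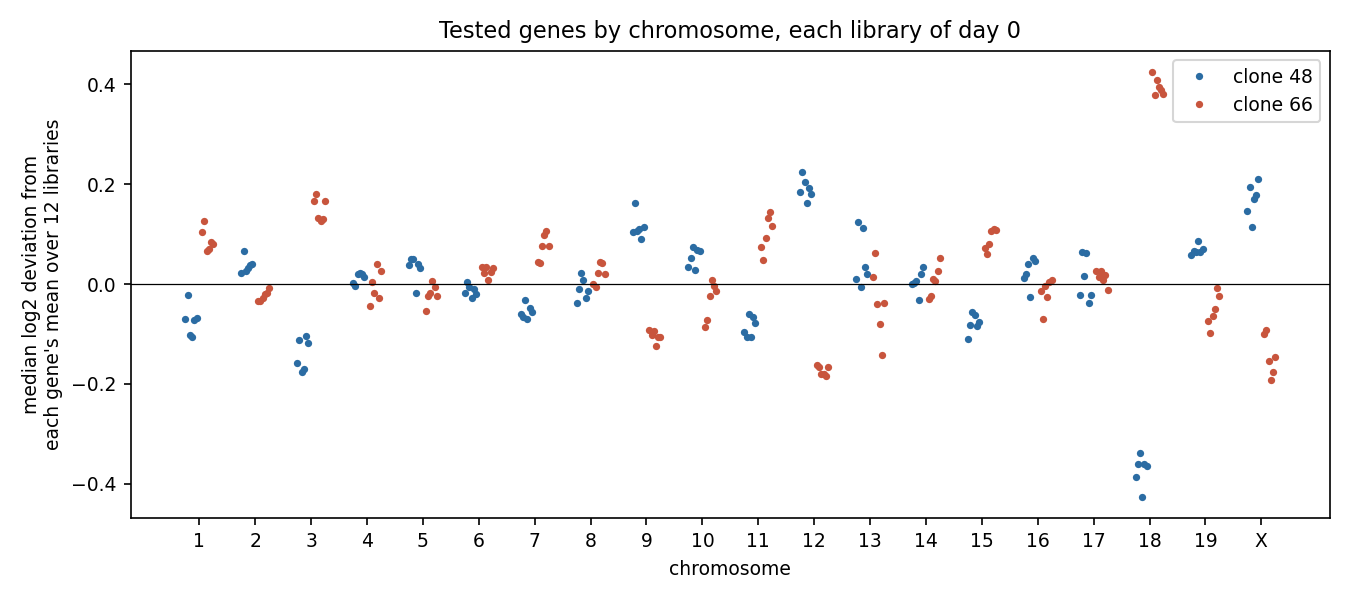
Each point is a day 0 library, and its height is the median, over tested genes of a chromosome, of the log2 deviation from the gene's mean over the 12 libraries. Clones separate most on chromosome 18 (-0.43 to -0.34 against 0.38 to 0.42), and also on chromosomes 3, 12 and X.

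Within chromosomes the shifts had edges. In windows of 50 consecutive tested genes, 42 of 313 windows had a median at least 0.3 away from that of all genes, and each of the 42 had the same sign at days 2 and 6. All 9 windows of chromosome 18, all 8 of chromosome X and 10 of the 11 of chromosome 12 were among them. On chromosome 14 the first 8 windows had medians of 0.07 to 0.23, and the last 2, from 69241848 to 124677127, lay at -0.38 and -0.39. There the libraries were at 0.14 to 0.24 in clone 48 and -0.20 to -0.13 in clone 66. *Ebf2* lies before that edge. Chromosome 8 changed sign between its eighth and ninth windows, with a median of -0.16 over the first 400 genes and 0.21 over the other 490, and -0.19 and 0.22 at day 6. A window of chromosome 13 (21945094 to 24842153) fell to -0.41 and holds 34 *Hist1* genes among its 50 genes, 21 of them called lower. Their summed level was 4850 to 7950 CPM in clone 48 and 3630 to 4910 CPM in clone 66, which overlapped. Copies of histone genes are near-identical, so that reads of single members are uncertain.

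**Figure D5:**
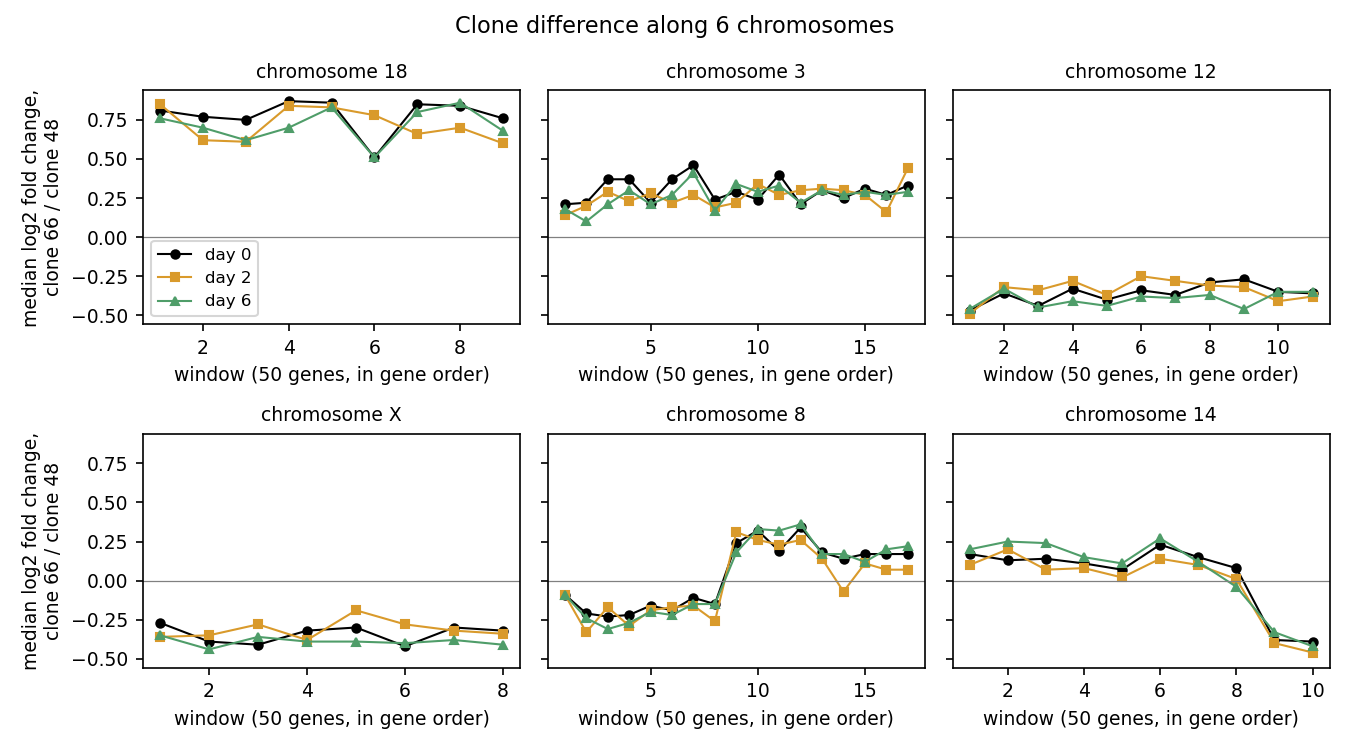
Lines join the median log2 fold change of clone 66 over clone 48 in consecutive windows of 50 tested genes on 6 chromosomes, at day 0 (black), day 2 (orange) and day 6 (green). Chromosome 18 is raised along its length, 12 and X are lowered along theirs, and the steps on chromosomes 8 and 14 fall between the same windows on each day.

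The differences of day 0 were followed into differentiation in the libraries of days 2 and 6, which the calls above did not use. Of the 1012 genes 665 were tested at day 2, 509 of them were called in the same direction (76.5%) and 22 in the opposite direction. At day 2, 33.4% of all tested genes were called, 16.2% higher and 17.2% lower in clone 66. At day 6 724 were tested, 543 of them were called in the same direction (75.0%) and 15 in the opposite direction, beside 13% of all genes called higher and 13.2% lower. The median of chromosome 18 was 0.70 at day 2 and 0.72 at day 6. *Ebf2* remained low in clone 66 at log2 fold changes of -6.36 and -5.67, with means of 56.6 ± 13.9 against 0.681 ± 0.198 CPM at day 2 and 51.8 ± 7.90 against 1.01 ± 0.231 CPM at day 6 (SD, n = 6). *Sema3a* remained high in clone 66 (8.11 and 7.51), although its level there was 7.99 ± 1.55 CPM at day 2 and 10.3 ± 1.08 CPM at day 6.

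The size of the clone difference itself changed for 1055 of the 16166 genes from day 0 to day 2 (6.53%) and for 599 to day 6 (3.71%). Over all 17589 genes of that fit the counts were 1094 and 637, and they fell to 264 and 141 without replicate 2 and to 527 and 322 without replicate 3. Without replicate 1 the count for day 6 was 263. With the replicate number as a block the counts were 2069 and 1297. *Efemp1* kept its direction, with a larger difference of -5.19 at day 2 (change -0.84, adjusted p = 0.00443) and a smaller one of -2.30 at day 6 (change 2.08, adjusted p = 6.99e-09). Among fat cell genes, *Cidec* went from -2.98 at day 0 to -0.09 at day 6, where it had 623 ± 34.6 and 594 ± 72.5 CPM, and *Adipoq* from -3.18 to -0.70, with 2860 ± 590 and 1790 ± 338 CPM (SD, n = 6). A few genes reversed. On the CPM scale of all 36 libraries, *Igf1* was higher in clone 66 at day 0 (2.65 ± 1.08 against 17.5 ± 4.16 CPM) and lower at day 6 (146 ± 18.4 against 87.4 ± 24.6 CPM), and *Inka2* was higher at day 0 (1.32) and lower at days 2 (-1.13) and 6 (-0.94). *Trib2*, *Aqp1* and *Anxa8* reversed at day 2, *Fga*, a fibrinogen gene with means of 0.767 and 0.0740 CPM at day 0, on both days, and *Cyb561*, *Mcam* and *Fam213a* at day 6.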

How the data were processed

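Total RNA libraries were sequenced from clones 48 and 66, and the 12 of day 0 were compared, with those of days 2 and 6 as a follow-up. The authors deposited read counts per gene and library, made per the labels with STAR 2.7.0d and featureCounts 1.6.2 on mm10 with GENCODE M21 and counted without strand. Counts were analysed in R 4.3.3 with edgeR 4.0.16 (TMM scaling, filterByExpr, quasi-likelihood test in its legacy form, genotype as covariate, Benjamini-Hochberg adjustment, threshold 0.05). CPM values are TMM scaled and not per length. A second rule added a fold of at least 2. DESeq2 1.42.0 and limma 3.58.1 served as alternatives. The procedure was tested on simulated counts. Ratios and floors (3 counts per library, 95% intervals) cover counting error only.

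The genes named were *Rxra*, the 10 largest non-overlapping changes in each direction at 10 CPM or more, the 5 most abundant silent and the 5 most abundant 2-fold genes in each direction, up to 4 members of each list, and up to 5 reversals per day. Some genes that the rule selects are not reported here, and other list members were named after their values were seen. The libraries and lists were chosen with earlier results of these data known. Same-numbered libraries of different genotype within a clone deviated together in all 6 pairs (r 0.192 to 0.921), and those of different clones in 11 of 12 (r 0.261 to 0.865, and -0.342 in the other). As 1 pair did not, the numbers were not treated as pairing the clones. The 2 alternatives based on chromosomes were added after seeing the data.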

Additional observations from a re-analysis of the deposited data

Results flagged for a closer look

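Within the 6 libraries of a clone, 24 of 346 groups of values at day 0 had a library far from the others by Dixon's ratio, where chance gives about 1 in 20. Replicate 1 of clone 48 *Rxra*SA had 4.56% of counts in structural RNA loci, 614 CPM of *Xist* (others 361 to 440), 0.634 CPM of *Comp* (others 2.08 to 2.91) and a chromosome 9 median deviation of 0.163. Replicate 2 of clone 48 *Rxra*WT was highest for *Rxra* at 259 CPM (others 190 to 210), *Rarg* at 52.3 CPM and *Cdh18* at 2.96 CPM, and lowest for *Il1rl1* at 11.7 CPM and *Anxa8* at 1.41 CPM. Other clone 48 values were *Sema3d* at 0.0544 CPM, a single count, and *Glrb* at 0.28 CPM in single libraries, and a chromosome 5 median deviation of -0.017.

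In clone 66, replicate 2 of *Rxra*SA was highest for *Nid2* at 26.5 CPM, *Jag1* at 6.71 CPM, *Fat4* at 18.7 CPM, *Fzd1* at 42.1 CPM, *Dkk2* at 0.32 CPM and *mt-Nd5* at 396 CPM. Replicate 1 of *Rxra*SA was highest for *Pdk1* at 5.85 CPM and *Cox7a1* at 0.441 CPM and lowest for *Cd14* at 8.66 CPM. In *Rxra*WT, replicate 1 was highest for *Nnmt* at 1.23 CPM and *D330045A20Rik* at 0.167 CPM (3 counts), and replicate 2 lowest for *Flrt2* at 25.3 CPM.

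For the following named genes the clone difference had opposite signs at day 0 and at the later day. Its change was called by edgeR's test over 36 libraries, which does not test the reversal of sign itself. From day 0 to day 2 the log2 fold change moved by -1.09 for *Aen*, -3.92 for *Anxa8*, -3.40 for *Aqp1*, -1.80 for *Fat4*, 5.07 for *Fga*, 3.72 for *Fst*, 1.37 for *Hes1*, -0.84 for *Hoxa2*, -3.39 for *Igf1* and -2.44 for *Inka2*. It moved by 1.31 for *Lpl*, 1.93 for *Mylk*, -1.34 for *Plk2* and 2.56 for *Trib2*. From day 0 to day 6 it moved by 2.63 for *Cyb561*, -2.12 for *Fam213a*, 7.25 for *Fga*, -3.44 for *Igf1*, 1.67 for *Igfbp4*, -2.23 for *Inka2* and -1.45 for *Mcam*. The adjusted p of the change in that test ranged from 4.08e-12 for *Inka2* to 0.00697 for *Fat4*.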

How the results depend on the processing

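Clone and library pool cannot be told apart, each clone is a single line, and 1 library of clone 48 stood apart. The number of genes called (3947) depended on which libraries entered and on how their correlation was modelled. It was 1800 with pairs summed, 1346 and 1004 in *Rxra*WT and *Rxra*SA libraries alone, 2474 with a random replicate block in limma-voom, and 2132 to 3961 without single libraries or replicate numbers. The count with a 2-fold change (1012) was 882 to 1109 without them, and 676 to 1389 over all alternatives. With the replicate number as a fixed block 5741 genes were called. Same-numbered libraries of different clones had a mean r of 0.5, over 0.1 in 11 of 12 pairs and -0.342 in the other, so they were not treated as paired, and all 12 libraries correlated best, in the other clone, with one of their own number. That is a hint from the data, not the design. Under the replicate block the interaction count went from 0 to 1, without a filter on low counts to 7, and it was 0 to 0 without single libraries. The block gave 2069 changes of the clone difference to day 2 (main 1094) and 1297 to day 6 (main 637), over all 17589 genes of that fit. Without libraries these counts were 264 to 1164 and 141 to 639. The lowest values came without replicate 2. Calls shared with day 2 were 416 to 538, and with day 6 349 to 562. The chromosome 18 median was 0.83 in genes with a log2 CPM of at least 3 and 0.74 to 0.80 without libraries. Chromosome 12 was at -0.34 in those genes, -0.39 with library size alone and -0.41 to -0.37 without libraries, chromosome 3 at 0.25 to 0.31, and chromosome X at -0.40 to -0.32. The chromosome 8 median (0.03) became 0 with library size alone and -0.01 to 0.04 without libraries, the lowest value without replicate 1. Of the 153 genes selected by the rule for names 84 kept their call under every alternative and 0 changed direction. The cause of these changes was not tested.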
